A study of Mus musculus with 36 samples.

Results

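The comparison described here is between livers taken at ZT14 and at ZT2 from mice without functional thyroid hormone receptor beta (THRB). ZT is zeitgeber time, in hours after lights on, so ZT2 lies early in the light phase and ZT14 early in the dark phase. The members are 6 of the 36 RNA-seq libraries of the study, 3 labelled KO_ZT14 and 3 labelled KO_ZT2, each from a separate mouse. Mice are named a, b and c within each group. The question the comparison addresses is which liver transcripts differ between early night and early day in the absence of THRB. Genes were members when their counts summed to at least 100 over the 36 libraries, which left 17994 of 54532 genes. All 36 mice were males 2 to 3 months old that carried the allele B6.129S1-Thrbtm1Df/J on a C57Bl/6NCrl background, were kept in a light-dark cycle and ate chow. The THRB-KO mice were homozygous (THRB-/-), and the allele impairs DNA binding by both THRB isoforms. The control mice, labelled WT, were heterozygous (THRB+/-) and not wild type, and 6 of them, 3 at ZT14 and 3 at ZT2, served as the comparison group. The allele is carried in every tissue, so that effects in liver and in other organs cannot be told apart.

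Total counts of the 6 libraries ranged from 31162685 to 42530551, and levels are given as CPM, counts scaled to TMM library sizes, of which 1 unit corresponded to 29.3 counts in the shallowest library. The 10 most counted genes took between 16.2% and 18% of the counts, and mitochondrial genes between 5.66% and 7.21%. Mice of 1 group differed beyond sampling noise. Chi-square values per gene lay between 38 and 124, and the largest was that between mice a and c at ZT14. Mouse c at ZT14 and mouse c at ZT2 each changed the number of calls most when left out, as given below. *Thrb* itself (chromosome 14, 17660261 to 18038090 on GRCm38) had 27.6, 32.6 and 31.9 CPM at ZT2 and 32.3, 30.9 and 26.1 CPM at ZT14, in the order of mice a, b and c, an order kept throughout. Because the counts of a gene do not separate the altered exon from the rest of the transcript, the level of *Thrb* was no check of the genotype.

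The daily clock of the liver is a feedback loop of transcription factors. BMAL1 (gene *Arntl*) pairs with CLOCK or NPAS2 and switches on genes through the DNA letters called E-box, among them the *Per* and *Cry* genes, whose proteins block that pair. A second loop acts on *Arntl* through elements called RORE, where ROR proteins activate and the REV-ERB proteins (*Nr1d1*, *Nr1d2*) repress, and the PAR-bZIP factors DBP, TEF and HLF pass the rhythm on through D-box elements in competition with the repressor NFIL3. In nocturnal mice feeding is concentrated in the dark phase and supplies a further daily signal to the liver, to its lipid and glucose enzymes and to its chaperones.

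The promoters below are shown because they carry the letters through which these factors act and belong to genes called between both times. Each is the 300-base stretch of RefSeq on GRCm38.p6 from 250 bases before to 50 bases after an annotated start, written 5′ to 3′ along the gene's strand. Capitals mark the E-box CACGTG in the *Ciart* and *Per1* promoters, the D-box TTANGTAA in that of *Per3*, the RORE letters TAGGTCA (or their reverse complement) in those of *Arntl* and *Nfil3*, and the heat shock element GAANNTTC in that of *Hspa1b*.
Ciart, chr3:95882179-95882478, minus strand, CIART represses CLOCK:BMAL1: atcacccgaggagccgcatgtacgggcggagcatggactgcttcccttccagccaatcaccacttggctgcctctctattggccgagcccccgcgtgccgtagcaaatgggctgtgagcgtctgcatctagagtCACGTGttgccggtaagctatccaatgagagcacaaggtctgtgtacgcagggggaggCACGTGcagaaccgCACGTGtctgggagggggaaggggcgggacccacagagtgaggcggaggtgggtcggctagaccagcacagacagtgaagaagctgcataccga
Per1, chr11:69098699-69098998, plus strand, a Period repressor: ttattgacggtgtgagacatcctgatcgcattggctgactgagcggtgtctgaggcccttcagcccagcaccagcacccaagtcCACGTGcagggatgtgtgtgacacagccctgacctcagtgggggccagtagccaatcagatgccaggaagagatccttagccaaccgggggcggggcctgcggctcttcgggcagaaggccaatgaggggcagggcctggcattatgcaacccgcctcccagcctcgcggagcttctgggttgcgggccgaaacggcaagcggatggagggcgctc
Per3, chr4:151044616-151044915, minus strand, a Period family member: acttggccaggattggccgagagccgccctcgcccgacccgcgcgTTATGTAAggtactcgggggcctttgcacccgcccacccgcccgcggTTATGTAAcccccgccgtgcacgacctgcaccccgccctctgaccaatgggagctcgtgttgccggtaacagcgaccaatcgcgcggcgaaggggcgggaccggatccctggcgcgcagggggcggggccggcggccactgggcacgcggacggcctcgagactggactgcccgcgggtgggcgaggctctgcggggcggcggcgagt
Arntl, chr7:113207261-113207560, plus strand, BMAL1: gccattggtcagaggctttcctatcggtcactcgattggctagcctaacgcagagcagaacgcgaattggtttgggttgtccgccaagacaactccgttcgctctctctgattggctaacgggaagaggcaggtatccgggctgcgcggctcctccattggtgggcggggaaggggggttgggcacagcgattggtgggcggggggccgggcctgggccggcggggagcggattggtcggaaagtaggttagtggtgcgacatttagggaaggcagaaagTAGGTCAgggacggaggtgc
Nfil3, chr13:52980990-52981289, minus strand, a D-box repressor: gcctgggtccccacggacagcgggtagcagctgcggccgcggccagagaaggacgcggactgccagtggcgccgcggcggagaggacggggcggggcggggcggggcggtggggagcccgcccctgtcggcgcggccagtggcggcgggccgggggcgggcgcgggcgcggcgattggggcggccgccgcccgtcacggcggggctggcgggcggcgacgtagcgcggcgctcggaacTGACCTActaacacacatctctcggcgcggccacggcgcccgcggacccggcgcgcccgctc
Hspa1b, chr17:34959189-34959488, minus strand, an inducible HSP70 chaperone: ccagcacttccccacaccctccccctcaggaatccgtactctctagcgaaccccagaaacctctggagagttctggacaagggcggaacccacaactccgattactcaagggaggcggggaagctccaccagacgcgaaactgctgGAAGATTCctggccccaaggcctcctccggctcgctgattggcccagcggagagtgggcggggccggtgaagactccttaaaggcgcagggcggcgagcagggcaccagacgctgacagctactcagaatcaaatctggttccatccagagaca

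The *Ciart* promoter held 3 E-boxes, the first starting 116 bases before the start, the *Per1* promoter 1 and the *Per3* promoter 2 D-boxes. The RORE letters began 30 bases after the start of this *Arntl* transcript and 12 bases before that of *Nfil3*, and the heat shock element of *Hspa1b* 104 bases before its start. The table of promoters held 32851 entries, of which 7.15% had an E-box, 2.32% a D-box, 2.61% the RORE letters, 7.86% a heat shock element and 1.79% a CRE (TGACGTCA), searched on both strands. No motif of these contains another. Of the tested genes 11992 had a promoter in the table and 11% of these an E-box, against 20.5% (33 of 161) of the genes called at least 2-fold higher at ZT14 and 7.55% (16 of 212) of those called at least 2-fold lower. Over all called genes, without a fold limit, the E-box shares were 15% of the higher and 12.2% of the lower genes, both above that of the tested genes. The RORE letters were in 2.51% of the tested genes, in 0.621% (1 of 161) of the 2-fold higher and in 4.72% (10 of 212) of the 2-fold lower genes, and in 1.62% and 3.39% of all higher and all lower called genes. The D-box was in 1.98% of the tested genes, in 3.73% of the 2-fold higher and 4.25% of the 2-fold lower genes, and the CRE in 3.29%, 3.11% and 2.83%. Of the heat shock and protein folding genes described below, 11 of 18 with a promoter had a heat shock element, against 7.22% of the tested genes. Of the clock repressors 4 of 8 with a promoter had an E-box, among them *Cry1*, which was not called. Of the list of clock activators 2 of 5 had the RORE letters and none an E-box. Of the clock outputs 3 of 9 had an E-box and none a D-box. *Dbp*, *Npas2*, *Clock*, *Cry2*, *Nr1d1* and *Nr1d2* had none of these motifs, nor had another promoter of *Per1* and of *Arntl*. Shares of promoters are descriptions without a test, and a match of letters is not a measured binding site.

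Of the 17994 genes, 1876 differed between ZT14 and ZT2 in THRB-KO livers when p-values of the quasi-likelihood test of edgeR were adjusted after Benjamini and Hochberg and held to 0.05. This is 10.4% of the tested genes. Of these 916 were higher at ZT14 (5.09%) and 960 lower (5.34%), and 538 changed at least 2-fold (2.99%), 231 upwards and 307 downwards. The 3 libraries of each time did not overlap in 1765 of the 1876 genes, against 25.5% of all tested genes. The median absolute log2 fold change was 0.66 among the called genes and 0.24 among all tested genes, and the median log2 fold change of all genes was -0.001. Without mouse c at ZT2 930 genes were called and without mouse c at ZT14 1207, whereas leaving out any of the other 4 mice gave between 1493 and 1635. A fit of the 6 libraries alone called 701 genes, of which 671 were among the 1876.

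**Figure D1:**
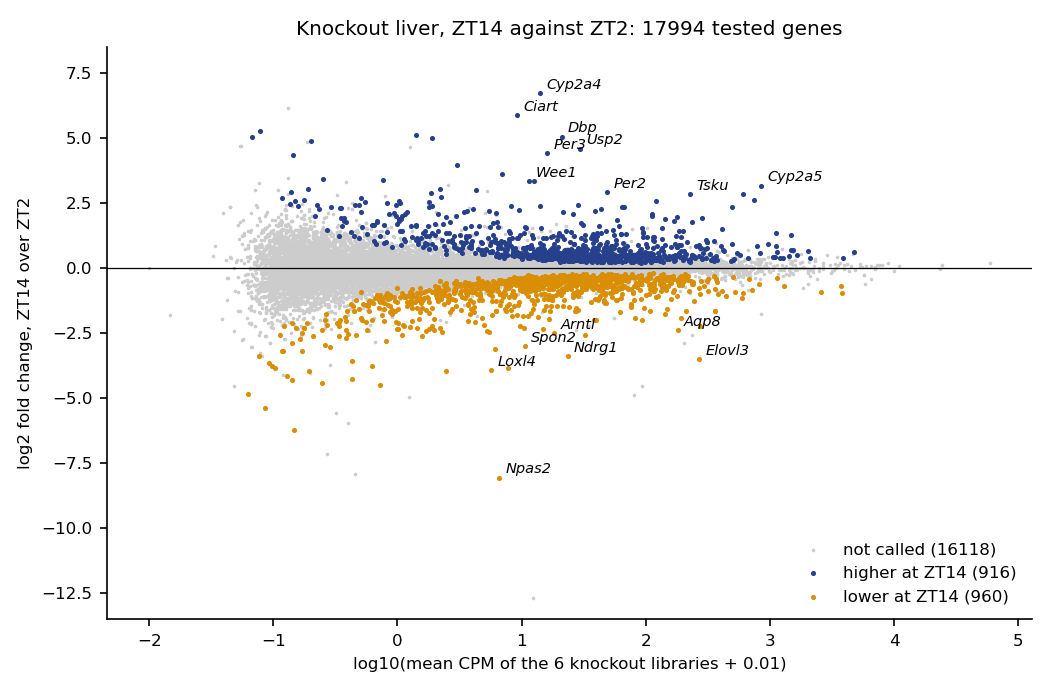
Each point is 1 of the 17994 tested genes, with the log10 mean CPM of the 6 THRB-KO libraries on the x axis and the log2 fold change of ZT14 over ZT2 on the y axis. The 916 genes called higher (blue) and 960 called lower (orange) at ZT14 are of similar number, and *Npas2* lies at -8.06.

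The list of clock activators held 6 genes, 1 of which, *Nfil3*, encodes a repressor at D-boxes and is not itself an activator. At ZT14 4 of the 6 were lower, *Nfil3* among them, and 1 was higher. *Npas2*, a partner of BMAL1, had 8.67, 14.1 and 16.5 CPM at ZT2 and 0.0341, 0.028 and 0.0672 CPM at ZT14. These are 1432 counts in the 3 ZT2 libraries and 5 counts in the 3 ZT14 libraries, a ratio of 289 (95% exact interval 124 to 891 from counting error alone). The level of *Npas2* was near zero in every ZT14 liver (log2 fold change -8.06, SE 1.01, adjusted p = 2.4e-06), and a fitted value at so few counts depends on the prior count of the fit. *Arntl* had 26.6, 31.9 and 34.7 CPM at ZT2 and 7.71, 5.12 and 3.6 CPM at ZT14, so that its highest ZT14 value lay far below its lowest ZT2 value (log2 fold change -2.52, SE 0.27, adjusted p = 3.0e-07). *Clock*, which encodes the alternative partner of BMAL1, fell less, from 40.3, 39.1 and 37.1 CPM to 27.1, 21.5 and 20 CPM (log2 fold change -0.77, SE 0.14, adjusted p = 2.8e-04). *Nfil3* fell from 53, 63.6 and 55 CPM to 28.5, 21.9 and 23.5 CPM (log2 fold change -1.22, SE 0.18, adjusted p = 2.9e-05), again without overlap. *Rora*, which encodes an activator at RORE, had 40, 55 and 47.5 CPM at ZT2 and 40.9, 50.8 and 37.1 CPM at ZT14, and these ranges overlapped (log2 fold change -0.15, SE 0.15, adjusted p = 0.617).

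Of the 10 repressors, 8 were higher at ZT14, none was called lower and the median log2 fold change was 1.59. *Ciart* rose from 0.327, 0.396 and 0.173 CPM to 16.6, 19.2 and 18.7 CPM, a 59.4-fold difference on 33 counts in the ZT2 libraries and 2008 in the ZT14 libraries (log2 fold change 5.89, SE 0.66, adjusted p = 4.3e-07). *Per3* rose from 1.9, 1.14 and 1.3 CPM to 27.3, 34 and 31.2 CPM, and the 3 ZT14 livers differed little among themselves (log2 fold change 4.42, SE 0.39, adjusted p = 9.1e-09). *Per2* had 10.5, 14.2 and 9.81 CPM at ZT2 and 89.4, 85.5 and 85.2 CPM at ZT14 (log2 fold change 2.91, SE 0.27, adjusted p = 2.7e-08). *Per1* was less even. It had 4.28, 20.4 and 2.02 CPM at ZT2, where mouse b stood apart, and 40.6, 47.5 and 55.7 CPM at ZT14 (log2 fold change 2.42, SE 0.60, adjusted p = 0.00807). The DEC proteins also repress at E-boxes, and of their genes *Bhlhe40* rose from 41.6, 65 and 37.2 CPM to 154, 132 and 135 CPM (log2 fold change 1.55, SE 0.28, adjusted p = 3.1e-04). *Bhlhe41* rose from 0.861, 0.693 and 0.49 CPM to 1.81, 2.91 and 1.68 CPM (log2 fold change 1.64, SE 0.46, adjusted p = 0.0178). *Nr1d2* rose from 28.1, 21.3 and 19.2 CPM to 41.9, 49.3 and 63.5 CPM (log2 fold change 1.17, SE 0.26, adjusted p = 0.00303) and *Cry2* from 23.6, 31.7 and 29.7 CPM to 47.3, 49 and 40 CPM (log2 fold change 0.68, SE 0.14, adjusted p = 0.00173).

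The 2 repressors without a call were *Nr1d1* and *Cry1*. *Nr1d1* (REV-ERBalpha) had 46.3, 31.7 and 39 CPM at ZT2 and 16.2, 24.3 and 28.4 CPM at ZT14, with a negative log2 fold change and no overlap (log2 fold change -0.76, SE 0.28, adjusted p = 0.0834), and its mean was highest at ZT6 among the 6 sampling times. It passed the threshold with DESeq2 (adjusted p = 0.0474) and in edgeR fits of the 18 THRB-KO libraries (adjusted p = 0.0410) or without a filter on low counts (adjusted p = 0.0413). *Cry1* had 17.1, 23.7 and 20.6 CPM and 29.6, 29.3 and 22.8 CPM (log2 fold change 0.41, SE 0.19, adjusted p = 0.184), with overlapping ranges. Without mouse c at ZT2 the values were 1.95 for *Per1* (adjusted p = 0.0642) and 1.46 for *Bhlhe41* (adjusted p = 0.105). This left 6 called repressors. *Bhlhe41* also lost the call without mouse b at ZT2 (adjusted p = 0.0510) or at ZT14 (adjusted p = 0.0925).

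The PAR-bZIP factors and other outputs of the clock rose with the repressors, 8 of 10 with a median log2 fold change of 2.20 over the list, and the number was 8 when each of the 6 mice was left out in turn. *Dbp* had 2.2, 0.643 and 0.894 CPM at ZT2 and 25.7, 38.6 and 57.7 CPM at ZT14 (log2 fold change 5.05, SE 0.51, adjusted p = 8.4e-08). *Tef* rose from 40.5, 30.8 and 30.9 CPM to 189, 218 and 211 CPM, the smallest adjusted p of the clock lists (log2 fold change 2.60, SE 0.20, adjusted p = 1.4e-09). *Hlf* changed less, from 37.9, 39 and 33.8 CPM to 59, 80.3 and 51.5 CPM (log2 fold change 0.79, SE 0.16, adjusted p = 0.00138). *Usp2*, a deubiquitinase gene, rose from 3, 2.38 and 1.62 CPM to 53.9, 59.8 and 55.5 CPM (log2 fold change 4.6, SE 0.43, adjusted p = 2.7e-08). *Wee1*, a kinase that holds cells before mitosis, rose from 1.54, 2.25 and 2.4 CPM to 19.4, 23.3 and 20 CPM (log2 fold change 3.33, SE 0.35, adjusted p = 1.9e-07). The 3 ZT14 livers were close to each other in both genes. *Nampt*, the rate-limiting enzyme of NAD salvage, had 37.8, 49.5 and 43.4 CPM and 156, 177 and 213 CPM (log2 fold change 2.06, SE 0.20, adjusted p = 3.2e-08). *Por*, the electron donor of the microsomal P450 enzymes, had 179.5, 156 and 151 CPM and 823, 761 and 879.9 CPM (log2 fold change 2.34, SE 0.19, adjusted p = 1.8e-09). *Tspan4* rose from 30, 27.1 and 29.8 CPM to 72.8, 76.3 and 91 CPM (log2 fold change 1.47, SE 0.12, adjusted p = 5.1e-09). The genes without a call were *Lonrf3*, at 1.39 to 1.85 CPM in all 6 livers, and *Tsc22d3*, a glucocorticoid-induced gene, with 54.6, 226 and 67.3 CPM at ZT2 and 131, 124 and 72.5 CPM at ZT14 (adjusted p = 0.931). Mouse b at ZT2 was the highest of the 6 in *Tsc22d3* and the highest of its group in *Per1*, which is also glucocorticoid-induced. Of the other called glucocorticoid responsive genes, *Cdkn1a* was also highest at ZT2 in mouse b, with 10.1, 32.9 and 9.96 CPM. *Fkbp5* was too, but there mouse b was close to mouse a, with 25.9, 27.8 and 13.1 CPM. Why this mouse differed was not tested.

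**Figure D2:**
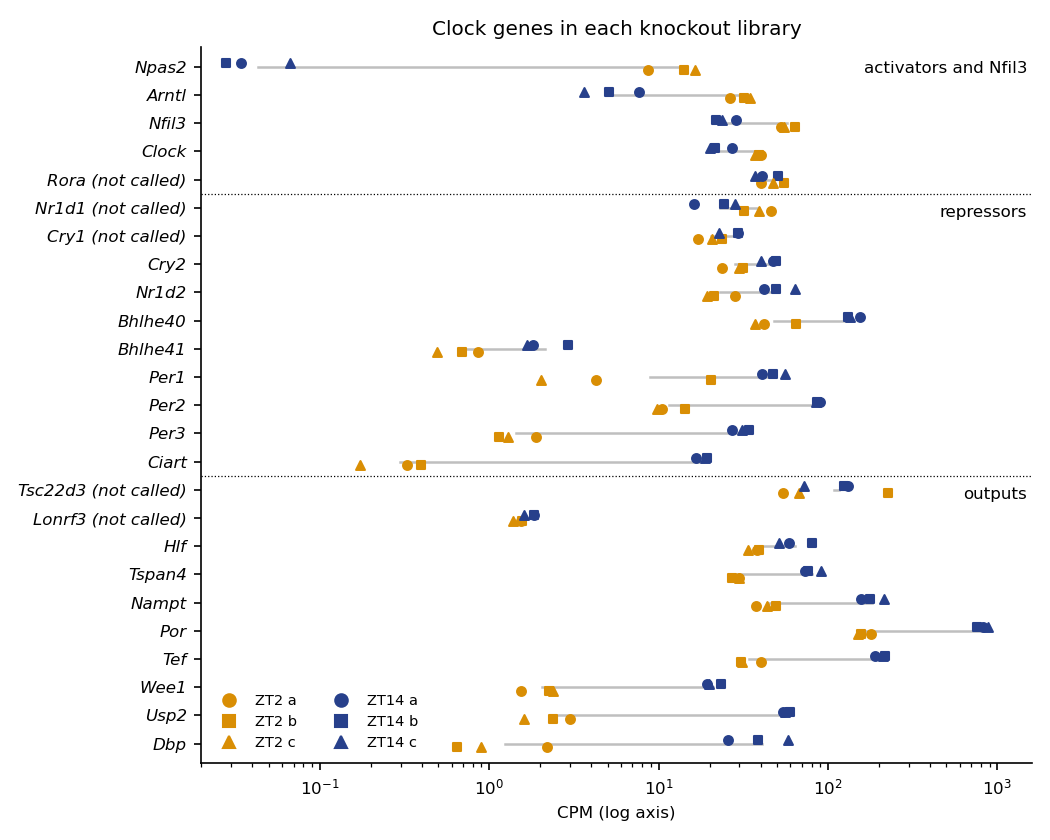
CPM on a log axis of 25 clock genes in each THRB-KO library, with ZT2 in orange, ZT14 in blue, mice a, b and c as circle, square and triangle, and a grey line between the group means. *Npas2*, *Arntl*, *Clock* and the repressor *Nfil3* lie to the left at ZT14, and the called repressors and outputs to the right.

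Outside these lists, large changes were looked for among genes with an adjusted p under 0.05, at least 5 CPM on average and no overlap between the 6 libraries. Of the 12 genes that rose and the 12 that fell most, *Npas2*, *Arntl*, *Ciart*, *Per2*, *Per3*, *Dbp*, *Usp2* and *Wee1* are described above. *Cyp2a5*, a P450 of coumarin and nicotine metabolism, rose from 149, 176 and 186 CPM to 1137, 1513 and 1955 CPM (log2 fold change 3.17, SE 0.36, adjusted p = 5.8e-07). Its near-identical neighbour on chromosome 7, *Cyp2a4*, had 0.119, 0.198 and 0.462 CPM at ZT2 and 1.94, 1.71 and 79.7 CPM at ZT14. The value of *Cyp2a4* in mouse c at ZT14 was far above the other 5, and the log2 fold change of 6.74 (adjusted p = 3.2e-04) became 2.80 (adjusted p = 0.0524) without that mouse. Reads of both genes can be split between them. *Mthfd1l*, a mitochondrial folate enzyme, was likewise highest in mouse c, at 4.4, 5.01 and 29.3 CPM against 0.624, 1.16 and 1.39 CPM at ZT2 (log2 fold change 3.61, SE 0.63, adjusted p = 2.3e-04), but kept the call without it. *Tsku*, a secreted protein of liver, rose from 68.7, 68.7 and 27.8 CPM to 416, 434 and 346 CPM (log2 fold change 2.85, SE 0.42, adjusted p = 2.1e-05). *Acot3*, an acyl-CoA thioesterase, is described with fatty acid oxidation and *Alas1* with haem synthesis.

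Of the genes that fell, *Elovl3*, a fatty acid elongase, had 527, 530.5 and 420.1 CPM at ZT2 and 100.2, 27.6 and 4.34 CPM at ZT14, with a wide spread among the ZT14 livers (log2 fold change -3.49, SE 0.65, adjusted p = 4.7e-04). *Ndrg1*, a stress-responsive gene, fell from 23.2, 44.2 and 61.3 CPM to 3.41, 3.86 and 5.04 CPM (log2 fold change -3.38, SE 0.35, adjusted p = 1.4e-07). *Loxl4*, of the lysyl oxidase family, fell from 4.04, 11.2 and 16.7 CPM to 0.512, 0.756 and 0.784 CPM (log2 fold change -3.94, SE 0.54, adjusted p = 9.0e-06). *Pitx3*, a homeobox gene, fell from 11.9, 21.4 and 9.87 CPM to 2.66, 0.56 and 0.0448 CPM (log2 fold change -3.84, SE 0.70, adjusted p = 3.7e-04). These lowest levels rest on few reads, with 2 counts of *Pitx3* in mouse c at ZT14. *Pitx3* (46135685 to 46148326) and *Elovl3* (46131897 to 46135307) are neighbours on opposite strands of chromosome 19. At ZT14 both were highest in mouse a and lowest in mouse c. In libraries that do not keep the strand the 2 genes may share reads, which was not tested. *Spon2*, a secreted matrix protein, fell from 17.8, 18.4 and 20.1 CPM to 2.73, 2.52 and 1.77 CPM (log2 fold change -3.02, SE 0.29, adjusted p = 4.4e-08). *Aqp8*, a water channel of the hepatocyte, fell from 174, 333 and 405 CPM to 84.7, 75 and 14.6 CPM (log2 fold change -2.39, SE 0.52, adjusted p = 0.00247). The remaining genes of this group were *Rnf125*, *Gas7*, *Raet1e* and *Camk1d*, with log2 fold changes between -2.57 and -2.36 and adjusted p-values between 2.7e-08 and 3.5e-04.

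Over the other gene lists the shares called are read against 10.4% for all tested genes. They were 40.9% for lipogenesis and desaturation, 24% for cholesterol synthesis and uptake, 25% for fatty acid oxidation and targets of PPARalpha, 42.9% for glucose production and 68.2% for heat shock and protein folding. The unfolded protein response, at 8.70%, and the immediate early genes, at 6.25%, lay below the share of all genes. Near it lay bile acid synthesis and transport, at 14.3%, and insulin signalling and feeding and apolipoproteins and secretion, both at 12.5%. None of 18 genes of oxidative phosphorylation and none of 23 cytosolic ribosomal proteins and elongation factors was called, with median log2 fold changes of 0.096 and 0.11. The log2 fold change was positive in all 18 of the former and in 22 of the latter.

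**Figure D3:**
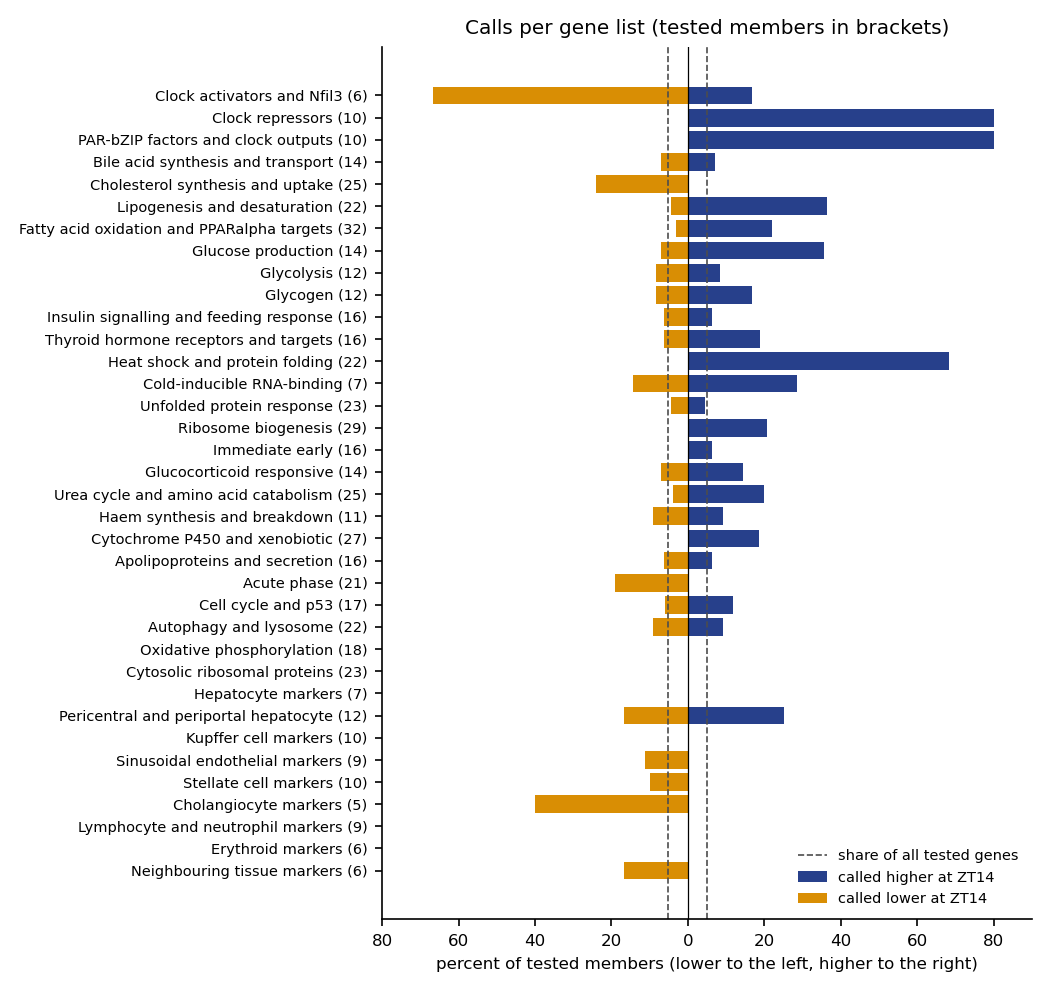
Bars give the percentage of tested members called higher (blue, to the right) and lower (orange, to the left) at ZT14 for 36 gene lists, with the number of tested members in brackets and dashed lines at 5.09% and 5.34%, the shares of all 17994 tested genes. Clock repressors and outputs at 80% and heat shock genes at 68.2% are highest to the right, and the list of clock activators and *Nfil3* at 4 of 6 genes to the left.

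Most genes of lipid synthesis were not called. Of 22 genes of lipogenesis and desaturation 8 rose and 1 fell, with a median log2 fold change of 0.46, and 13 were not called. *Gpat4*, a glycerol-3-phosphate acyltransferase, rose from 144, 131 and 116 CPM to 245, 251 and 231 CPM (log2 fold change 0.89, SE 0.13, adjusted p = 2.7e-05). *Lpin1*, a phosphatidic acid phosphatase, rose from 20.6, 66.5 and 46.2 CPM to 235, 151 and 155 CPM (log2 fold change 2.02, SE 0.43, adjusted p = 0.00188). The desaturase gene *Fads2* rose from 163, 239 and 225 CPM to 344, 361 and 538 CPM (log2 fold change 0.99, SE 0.19, adjusted p = 8.9e-04). *Thrsp*, a thyroid hormone responsive gene of lipogenesis, had 119, 278 and 224 CPM at ZT2 and 1863, 1539 and 400.5 CPM at ZT14, where mouse c was lowest but still above every ZT2 value (log2 fold change 2.61, SE 0.59, adjusted p = 0.00358). *Fasn*, *Acaca*, *Acly* and *Scd1*, chosen after their values were seen as the core enzymes of the pathway, had log2 fold changes of 0.74, 0.54, -0.11 and 0.21 and adjusted p-values between 0.13 and 0.91. The other 4 genes that rose were *Srebf1*, *Elovl6*, *Lpin2* and *Dgat2*, with log2 fold changes between 0.52 and 1.42, and the gene that fell was the elongase *Elovl5* (log2 fold change -0.90, SE 0.28, adjusted p = 0.0340), also named after their values were seen. The number called higher was 4 without mouse a at ZT2, 5 without mouse c at ZT2 or mouse b at ZT14 and 8 or 9 without any of the others, and *Elovl5* lost the call without mouse b or c at either time.

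Of 25 genes of cholesterol synthesis and uptake 6 fell, none rose and 19 were not called, and 21 had a negative log2 fold change with a median of -0.48. *Hmgcs1*, the HMG-CoA synthase of the cytosol, fell from 269, 443 and 631 CPM to 104, 102 and 83 CPM (log2 fold change -2.22, SE 0.32, adjusted p = 1.6e-05). The next steps of the pathway, mevalonate kinase (*Mvk*) and phosphomevalonate kinase (*Pmvk*), fell from 30.1, 36.8 and 48.9 CPM to 18, 18.7 and 18.2 CPM (log2 fold change -1.07, SE 0.21, adjusted p = 0.00106) and from 60.4, 97.3 and 107 CPM to 57.9, 56.8 and 42.3 CPM (log2 fold change -0.75, SE 0.22, adjusted p = 0.0218), and *Dhcr7*, the last step, from 113, 152 and 179 CPM to 82.8, 85.5 and 73.4 CPM (log2 fold change -0.88, SE 0.21, adjusted p = 0.00550). In all 4 genes mouse a was the lowest and mouse c the highest of the ZT2 livers. The number of genes called lower was 2 without mouse c at ZT2, 3 without mouse b at ZT2 or mouse c at ZT14 and 11 without mouse a at ZT2. *Dhcr7* lost the call without mouse c at ZT2 (adjusted p = 0.0592) and *Pmvk* without mouse b or c at ZT2 or mouse c at ZT14 (adjusted p between 0.0749 and 0.158).

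Among 14 genes of bile acid synthesis and transport 1 rose and 1 fell, a share of 14.3% against 10.4% of all tested genes. *Cyp7a1*, the rate-limiting enzyme of bile acid synthesis, had 101, 86.3 and 31.2 CPM at ZT2 and 242, 259 and 359 CPM at ZT14 (log2 fold change 1.98, SE 0.46, adjusted p = 0.00479), and 1.61 (adjusted p = 0.0517) was left of this without mouse c at ZT2. *Abcb11*, the bile salt export pump, fell from 886, 776 and 806 CPM to 436, 329 and 347 CPM, and its 6 values formed separate ranges (log2 fold change -1.15, SE 0.12, adjusted p = 2.2e-07).

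Of 32 genes of fatty acid oxidation and targets of PPARalpha 7 rose and 1 fell, and 27 had a positive log2 fold change. *Cpt1a*, which admits fatty acids to mitochondria, rose from 226, 197 and 188 CPM to 306, 348 and 398 CPM (log2 fold change 0.79, SE 0.16, adjusted p = 0.00173). The thioesterases *Acot4* and *Acot3* rose from 17.3, 32.9 and 24.4 CPM to 58.4, 70.3 and 59.5 CPM (log2 fold change 1.33, SE 0.24, adjusted p = 3.8e-04) and from 0.653, 4.01 and 2.02 CPM to 18.9, 27.6 and 22.3 CPM (log2 fold change 3.34, SE 0.76, adjusted p = 0.00358), and as members of a gene cluster on chromosome 12 they may share reads. *Plin2*, which coats lipid droplets, fell from 468, 386 and 379.8 CPM to 277, 248 and 139 CPM (log2 fold change -0.89, SE 0.19, adjusted p = 0.00186). The median log2 fold change of the list was 0.37, and without mouse c at ZT2 4 genes were called higher. *Pdk4* and *Fgf21*, chosen after their values were seen as genes of fasting, had adjusted p-values of 0.13 and 0.056.

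Glucose and glycogen genes changed in both directions. Of 14 genes of glucose production 5 rose and 1 fell, of 12 of glycogen 2 rose and 1 fell, and of 12 of glycolysis 1 rose and 1 fell. Without mouse c at ZT2 or mouse b at ZT14 no glycolysis gene was called, without mouse a at ZT14 none was higher, and without mouse a at ZT2 or mouse c at ZT14 3 were higher. *Gys2*, the glycogen synthase of liver, rose from 102, 109.9 and 104 CPM to 325, 386 and 372 CPM (log2 fold change 1.77, SE 0.17, adjusted p = 3.2e-08), with little spread within either time. The gene of the glucose production list that fell was *Ppp1r3c*, which targets protein phosphatase 1 to glycogen and is not itself an enzyme of glucose production. *Ppp1r3c* fell from 95.9, 158 and 132 CPM to 51.8, 28.2 and 22.1 CPM (log2 fold change -1.92, SE 0.33, adjusted p = 1.7e-04). The gene of the glycogen list that fell, the phosphorylase kinase subunit *Phka2* (log2 fold change -0.50, SE 0.13, adjusted p = 0.0144), lost its call without mouse c at ZT2 (adjusted p = 0.103) or at ZT14 (adjusted p = 0.115). *Slc37a4*, the glucose-6-phosphate transporter of the endoplasmic reticulum, rose from 140.3, 164 and 126 CPM to 294, 326 and 239.5 CPM (log2 fold change 1.0, SE 0.14, adjusted p = 1.1e-05). *Pck1* and *G6pc*, the enzymes that control glucose output, were not called, with log2 fold changes of 0.60 (adjusted p = 0.44) and -0.39 (adjusted p = 0.74). The number of glucose production genes called higher was 1 without mouse c at ZT2 or at ZT14, 2 without mouse a at ZT2 and 3 without mouse a at ZT14.

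Of 16 genes of insulin signalling and feeding, *Tfrc*, the transferrin receptor, rose from 18.9, 14.5 and 11.6 CPM to 44.9, 56.3 and 40.7 CPM (log2 fold change 1.66, SE 0.26, adjusted p = 6.9e-05). *Avpr1a*, a vasopressin receptor, fell from 63.4, 53.9 and 74.3 CPM to 19.7, 18.8 and 9.83 CPM (log2 fold change -1.99, SE 0.26, adjusted p = 3.9e-06). Neither gene is a component of insulin signalling itself, and *Irs2* had an adjusted p of 0.069.

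The chaperones formed the group with the largest share of calls after the clock. Of 22 heat shock and protein folding genes 15 rose and none fell, all 22 had a positive log2 fold change with a median of 0.51, and the libraries did not overlap in 19. *Hspa1b*, an inducible HSP70, had 19, 18.9 and 4.82 CPM at ZT2 and 53.3, 92.8 and 47.1 CPM at ZT14 (log2 fold change 2.17, SE 0.47, adjusted p = 0.00253). Its near-identical copy *Hspa1a* can share its reads. *Dnaja1*, an HSP70 cochaperone, rose from 233, 219 and 137 CPM to 399, 466 and 389 CPM (log2 fold change 1.09, SE 0.18, adjusted p = 1.0e-04). *Chordc1*, an HSP90 cochaperone, rose from 42.5, 47 and 27.6 CPM to 60.8, 70.6 and 69.6 CPM (log2 fold change 0.78, SE 0.17, adjusted p = 0.00242). *Hsp90ab1*, the constitutive HSP90, rose from 947, 982 and 874 CPM to 1133, 1315 and 1293 CPM (log2 fold change 0.42, SE 0.093, adjusted p = 0.00309). Mouse c at ZT2 was the lowest of the 6 livers in each of these genes, and in *Hspa8*, chosen after its values were seen, it had 457.8 CPM against 1138 and 1005 CPM in mice a and b. Without mouse c at ZT2 5 of the 22 genes were called, and without any other mouse between 12 and 16. The fit of the 6 libraries alone called 4. *Hsf1*, the gene of the factor that drives heat shock genes, was not called (log2 fold change 0.03, adjusted p = 0.92).

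Of the 7 cold-inducible and splicing genes, *Rbm3* and *Rbm14* rose (log2 fold change 0.51, SE 0.14, adjusted p = 0.0137 and log2 fold change 0.53, SE 0.14, adjusted p = 0.0106) and *Tra2b* fell (log2 fold change -0.39, SE 0.11, adjusted p = 0.0197). Without mouse c at ZT14 none of these was called (adjusted p between 0.0640 and 0.0934), and without mouse c at ZT2 *Rbm3* and *Rbm14* had adjusted p-values of 0.0638 and 0.0745. *Tra2b* also had adjusted p-values of 0.118 without mouse b at ZT2 and 0.0508 without mouse a at ZT14. Of 29 genes of ribosome biogenesis 6 rose and none fell, and 25 had a positive log2 fold change with a median of 0.36. *Ncl*, nucleolin, rose from 153, 158 and 151 CPM to 198, 208 and 242 CPM (log2 fold change 0.49, SE 0.10, adjusted p = 0.00138), and was the gene left when mouse c at ZT2 or mouse c at ZT14 was taken out. Of 23 genes of the unfolded protein response *Herpud1* rose (log2 fold change 1.02, SE 0.29, adjusted p = 0.0190) and *Atf4* fell (log2 fold change -0.46, SE 0.13, adjusted p = 0.0178). Without mouse a or c at ZT2 or mouse b at ZT14 *Herpud1* had an adjusted p between 0.0602 and 0.158, and without mouse c at ZT2 or mouse b at ZT14 *Atf4* had 0.0638 and 0.0984.

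**Figure D4:**
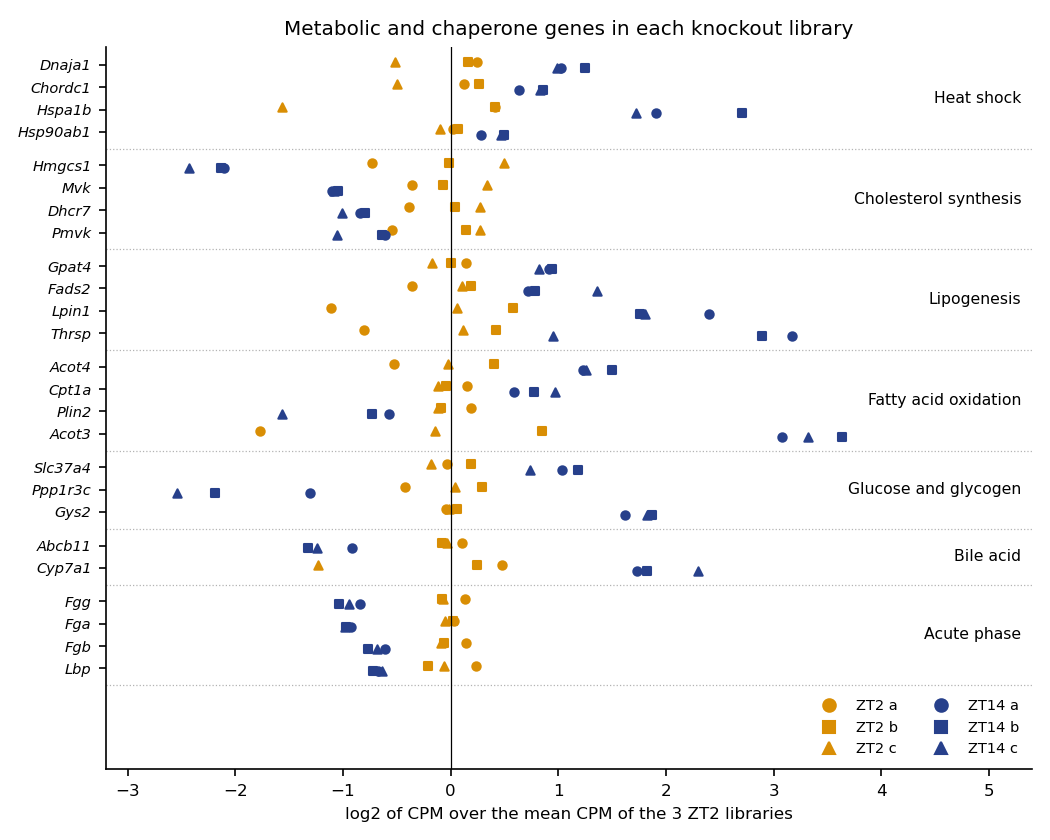
The log2 of the CPM of each THRB-KO library over the mean CPM of the 3 ZT2 libraries, for genes grouped by pathway, with ZT2 in orange, ZT14 in blue and mice a, b and c as circle, square and triangle. At ZT2 mouse c lies lowest in *Dnaja1*, *Chordc1*, *Hspa1b* and *Hsp90ab1* and highest in *Hmgcs1*, *Mvk*, *Dhcr7* and *Pmvk*.

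Of 25 genes of the urea cycle and amino acid catabolism 5 rose and 1 fell, and 22 had a positive log2 fold change with a median of 0.32. The gene that fell, *Gldc* of glycine cleavage, was named after its value was seen (log2 fold change -0.53, SE 0.15, adjusted p = 0.0205) and lost the call without mouse b or c at either time. *Tdo2*, which opens tryptophan breakdown, rose from 1247, 1169 and 1179 CPM to 1687, 1724 and 1528 CPM (log2 fold change 0.46, SE 0.090, adjusted p = 8.9e-04). *Asl*, the argininosuccinate lyase of the urea cycle, rose from 554, 591 and 526 CPM to 1303, 947 and 793 CPM (log2 fold change 0.86, SE 0.18, adjusted p = 0.00187). *Gpt2*, the mitochondrial alanine aminotransferase, rose from 263, 242 and 353 CPM to 625, 504 and 417 CPM (log2 fold change 0.85, SE 0.20, adjusted p = 0.00478). In haem synthesis *Alas1*, the rate-limiting enzyme, had 328, 79.8 and 44.7 CPM at ZT2 and 617, 861 and 1731 CPM at ZT14, with a wide spread at both times (log2 fold change 2.83, SE 0.77, adjusted p = 0.0151). It lost the call without mouse b or c at ZT2 or mouse c at ZT14 (adjusted p between 0.0718 and 0.102). *Ppox*, a later enzyme of the same pathway, fell (log2 fold change -0.51, SE 0.12, adjusted p = 0.00344). Of 27 P450 and xenobiotic genes 5 rose and none fell, among them *Nr1i2*, which encodes the receptor PXR, from 71.4, 71.9 and 62 CPM to 118, 125 and 96.6 CPM (log2 fold change 0.73, SE 0.14, adjusted p = 9.3e-04), beside *Cyp2a5* and *Cyp2a4* given above. The number was 3 without mouse b or c at ZT2 or mouse a or b at ZT14.

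Of 21 acute phase genes 4 fell and none rose, and the number called lower was 4 or 5 without each mouse in turn. The 3 chains of fibrinogen lie next to each other on chromosome 3 and fell together. *Fga* had 5183, 5127 and 4870 CPM at ZT2 and 2663, 2576 and 2568 CPM at ZT14 (log2 fold change -0.96, SE 0.15, adjusted p = 3.6e-05). *Fgb* had 5038, 4377 and 4278 CPM and 2985, 2688 and 2833 CPM (log2 fold change -0.69, SE 0.13, adjusted p = 3.9e-04). *Fgg* had 3727, 3208 and 3226 CPM and 1889, 1655 and 1758 CPM (log2 fold change -0.94, SE 0.12, adjusted p = 2.4e-06). *Lbp*, which binds lipopolysaccharide, fell from 121, 88.2 and 97.8 CPM to 64.3, 62.2 and 65.7 CPM (log2 fold change -0.68, SE 0.16, adjusted p = 0.00482). The inflammation markers *Saa1*, *Saa2*, *Hp* and *Lcn2*, named after their values were seen, were not called (adjusted p between 0.54 and 0.99). Of 16 apolipoprotein and secretion genes *Apoa5* rose (log2 fold change 0.44, SE 0.10, adjusted p = 0.00267) and *Lipc*, hepatic lipase, fell (log2 fold change -0.40, SE 0.10, adjusted p = 0.0101), and *Lipc* lost the call without mouse c at ZT2 (adjusted p = 0.0892) or at ZT14 (adjusted p = 0.0916).

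*Bnip3*, a gene of mitophagy, had the smallest adjusted p of all listed genes. It rose from 71.1, 74.6 and 61.2 CPM to 198, 205 and 201 CPM (log2 fold change 1.54, SE 0.11, adjusted p = 4.3e-10). Of 22 genes of autophagy and the lysosome 2 rose and 2 fell. *Atg7* fell (log2 fold change -0.37, SE 0.090, adjusted p = 0.00719) but had an adjusted p of 0.0560 without mouse c at ZT14. *Becn1* rose (log2 fold change 0.24, SE 0.077, adjusted p = 0.0469) and *Gabarapl1* fell (log2 fold change -0.49, SE 0.15, adjusted p = 0.0301), and *Becn1* lost the call without mouse b or c at either time and *Gabarapl1* without mouse a or c at ZT2 or mouse b or c at ZT14. Among 17 genes of the cell cycle and p53, *Ccne1*, cyclin E1, rose from 0.713, 0.322 and 0.289 CPM to 3.1, 2.07 and 4.61 CPM (log2 fold change 2.90, SE 0.38, adjusted p = 4.8e-06), beside *Wee1*, and *Cdkn1a*, the inhibitor p21, had 10.1, 32.9 and 9.96 CPM at ZT2 and 8.39, 2.63 and 3.87 CPM at ZT14. Its call (log2 fold change -1.85, SE 0.51, adjusted p = 0.0179) was lost without mouse b at ZT2 (adjusted p = 0.228) or without mouse b or c at ZT14 (adjusted p = 0.0946 and 0.0868). Among 14 glucocorticoid responsive genes *Fkbp5* rose from 25.9, 27.8 and 13.1 CPM to 143, 117 and 77.2 CPM (log2 fold change 2.33, SE 0.32, adjusted p = 9.2e-06), *Per1* rose as given above and *Cdkn1a* fell. Of 16 immediate early genes *Atf3* rose from 1.07, 1.36 and 0.837 CPM to 3.31, 3.36 and 3.92 CPM (log2 fold change 1.69, SE 0.40, adjusted p = 0.00519), and no other was called.

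Of 16 thyroid hormone receptors, carriers and targets 3 rose and 1 fell. *Thra*, which encodes the other thyroid hormone receptor, had 20.2, 20 and 27.7 CPM at ZT2 and 8.83, 11.9 and 9.2 CPM at ZT14, separate ranges (log2 fold change -1.18, SE 0.15, adjusted p = 3.9e-06). *Thra* overlaps *Nr1d1* on the opposite strand of chromosome 11, and in libraries that do not keep the strand reads of the overlap cannot be told apart. *Idh3a*, an isocitrate dehydrogenase subunit, rose from 40.6, 35.3 and 32.4 CPM to 52.2, 43.9 and 52.5 CPM (log2 fold change 0.46, SE 0.089, adjusted p = 8.0e-04). *Slc16a10*, a transporter of thyroid hormone and aromatic amino acids, rose from 101, 74.7 and 89.9 CPM to 118, 144 and 132 CPM (log2 fold change 0.57, SE 0.16, adjusted p = 0.0171), but had an adjusted p between 0.0587 and 0.0984 without mouse b or c at ZT2 or mouse b at ZT14. The third gene was *Thrsp*. *Dio1*, which activates thyroid hormone, and *Hr* and *Me1*, classical targets, were not called, with adjusted p-values of 0.70, 0.75 and 0.63, and *Thrb* had log2 fold change -0.044, SE 0.13, adjusted p = 0.891.

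All samples are labelled liver, and none of the 7 hepatocyte markers tested was called. The summed CPM of these markers was between 72720 and 80080 at ZT2 and between 83000 and 87500 at ZT14, without overlap. The sums of sinusoidal endothelial and cholangiocyte markers lay lower at ZT14 without overlap, and those of Kupffer and stellate cell markers overlapped. The sum over 10 Kupffer cell markers was 237.1 to 412.7 CPM at ZT2 and 227.4 to 253.2 CPM at ZT14, with none called and all 10 log2 fold changes negative (median -0.50). Sinusoidal endothelial markers summed to 204.9 to 260.5 CPM at ZT2 and 172.8 to 202.3 CPM at ZT14, stellate cell markers to 412.0 to 589.1 and 319.6 to 438.2 CPM, and cholangiocyte markers to 41.6 to 51.4 and 27.2 to 38.3 CPM. Of 9 endothelial markers 1 was called (11.1%) and of 10 stellate markers 1 (10%), near the 10.4% of all tested genes. Of 5 tested cholangiocyte markers 2 were called (40%). Of the endothelial markers *Stab2* fell from 38.9, 38.2 and 38.9 CPM to 26.2, 25.1 and 25.3 CPM (log2 fold change -0.60, SE 0.13, adjusted p = 0.00175). Of the stellate markers *Pdgfrb* fell from 11.9, 14.5 and 19 CPM to 6.04, 7.42 and 8.15 CPM (log2 fold change -1.06, SE 0.22, adjusted p = 0.00147). In controls the log2 fold changes were -0.068 for *Stab2* and -0.32 for *Pdgfrb* (unadjusted p of the difference 0.00551 and 0.0219, adjusted p = 1). The cholangiocyte markers *Sox9* and *Spp1* (log2 fold change -0.73, SE 0.24, adjusted p = 0.0462 and log2 fold change -0.51, SE 0.17, adjusted p = 0.0481) were both without a call when mouse a or c at ZT2 or mouse a or c at ZT14 was left out (adjusted p between 0.0565 and 0.254), and *Sox9* also without mouse b at ZT2 (adjusted p = 0.0747). In whole tissue, fewer cells of a type and less RNA per cell cannot be told apart. Of 6 tested markers of neighbouring tissues *Cela1* fell (log2 fold change -1.12, SE 0.24, adjusted p = 0.00232), while the pancreatic genes *Cpa1*, *Prss2* and *Amy2a5* had 0 counts in all 6 libraries. Lymphocyte and neutrophil markers (9 tested) and erythroid markers (6 tested) had no call, with sums of 6.65 to 11.9 and 198.2 to 351.0 CPM over the 6 livers. Of 12 markers of pericentral and periportal hepatocytes 3 rose and 2 fell. The genes that rose were the pericentral *Slc1a2* (log2 fold change 1.05, SE 0.17, adjusted p = 1.1e-04) and *Cyp2e1* (log2 fold change 0.63, SE 0.20, adjusted p = 0.0396) and the periportal *Sds* (log2 fold change 0.92, SE 0.27, adjusted p = 0.0264), and those that fell were the periportal *Hal* (log2 fold change -0.91, SE 0.18, adjusted p = 0.00114) and *Ctsc* (log2 fold change -0.58, SE 0.16, adjusted p = 0.0144). *Cyp2e1* lost the call without mouse b or c at ZT2 or mouse a or b at ZT14 (adjusted p between 0.0931 and 0.157), *Sds* without mouse a or c at ZT2 or mouse c at ZT14 (adjusted p between 0.111 and 0.187) and *Ctsc* without mouse a at either time (adjusted p = 0.110 and 0.0745). The part that cell composition plays in the changes above was not tested.

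Among the 6 sampling times of THRB-KO mice, the highest mean of the 916 genes called higher was at ZT14 for 628 (68.6%), at ZT10 for 208 (22.7%) and at ZT18 for 60. Their lowest mean was at ZT2 for 531 (58.0%) and at ZT6 for 209 (22.8%). Of the 960 genes called lower 663 (69.1%) had their lowest mean at ZT14 and 217 (22.6%) at ZT10, and 545 (56.8%) their highest at ZT2. The choice of ZT14 and ZT2 favours these times. Several clock genes had their extreme elsewhere: *Dbp* had 205.3 CPM at ZT10 and 40.7 CPM at ZT14, *Tef* 325.9 and 205.7 CPM, *Ciart* 39.6 and 18.2 CPM, and *Arntl* 1.05 and 5.48 CPM. *Per2*, in contrast, had nearly the same mean at ZT14 (86.7 CPM) and ZT18 (87.8 CPM).

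The change from ZT2 to ZT14 was then set beside that in control livers, which come from other mice but share the estimate of spread in the fit. In controls 2263 genes (12.6%) were called, 1117 higher and 1146 lower, and 1465 without control mouse c at ZT2. Of these 1245 were called in THRB-KO livers too, which is 66.4% of the THRB-KO calls and 55.0% of the control calls, and all 1245 had the same direction. Of the 631 genes called in THRB-KO livers alone 606 (96.0%) had the same sign in controls, and of the 1018 called in controls alone 984 had the same sign in THRB-KO livers. Across the 1876 genes Pearson's r of the log2 fold changes was 0.893, and 0.535 across all tested genes, as a description over genes that are not independent.

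The test of the difference between genotypes called no gene. With edgeR's quasi-likelihood test of the interaction 0 of 17994 genes had an adjusted p under 0.05, 559 (3.11%) had an unadjusted p under 0.05, and the smallest adjusted p was 1. Of the 1876 genes called in THRB-KO livers 93 (4.96%) had an unadjusted p under 0.05. A gene called in 1 genotype alone is therefore not shown to differ. Among the clock genes, log2 fold changes in controls were -2.17 for *Arntl*, -7.69 for *Npas2*, 2.95 for *Per2* and 5.43 for *Ciart*. *Dbp* had 3.83 in controls and 5.05 in THRB-KO livers (unadjusted p of the difference 0.0802), and *Per1* had 3.90 and 2.42 (unadjusted p 0.0856). *Nr1d2* had 0.63 in controls, where it was not called (adjusted p = 0.112), and 1.17 in THRB-KO livers (unadjusted p of the difference 0.148). The heat shock list had 17 genes called higher in controls and 15 in THRB-KO livers, and the ribosome biogenesis list 17 and 6.

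The 5 genes with the smallest p of the difference were *Cyp2a4*, *Gys1*, *Hoxa4*, *AW046200* and *Acyp2*, with unadjusted p-values between 0.00104 and 0.00211 and an adjusted p of 1. *Cyp2a4* had 0.192, 0.616 and 1.88 CPM at ZT2 and 2.50, 1.72 and 1.11 CPM at ZT14 in controls, so its difference of 5.76 rests on mouse c of the THRB-KO livers at ZT14. *Gys1*, the glycogen synthase of muscle, had 4.04, 4.21 and 3.78 CPM and 3.89, 3.69 and 4.03 CPM in THRB-KO livers and 2.24, 2.64 and 2.79 CPM and 4.72, 5.00 and 3.75 CPM in controls, a difference in log2 fold change of -0.86 (SE 0.24). *Acyp2* had a difference of 1.34 (SE 0.40), while *Hoxa4* and *AW046200* were below 1 CPM in all 12 livers. DESeq2's Wald test called 2 other genes, *Mup4* and *Cebpe*. In both, detection varied from mouse to mouse: *Mup4* had 73.7 CPM in mouse a of the THRB-KO livers at ZT2 and 0 in the other 5, against 10.7 to 105.5 CPM in the 6 controls, and *Cebpe* was above 0.1 CPM in 3 of the THRB-KO and 1 of the control livers. In edgeR the unadjusted p-values of these 2 genes were 0.0787 and 0.182.

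**Figure D5:**
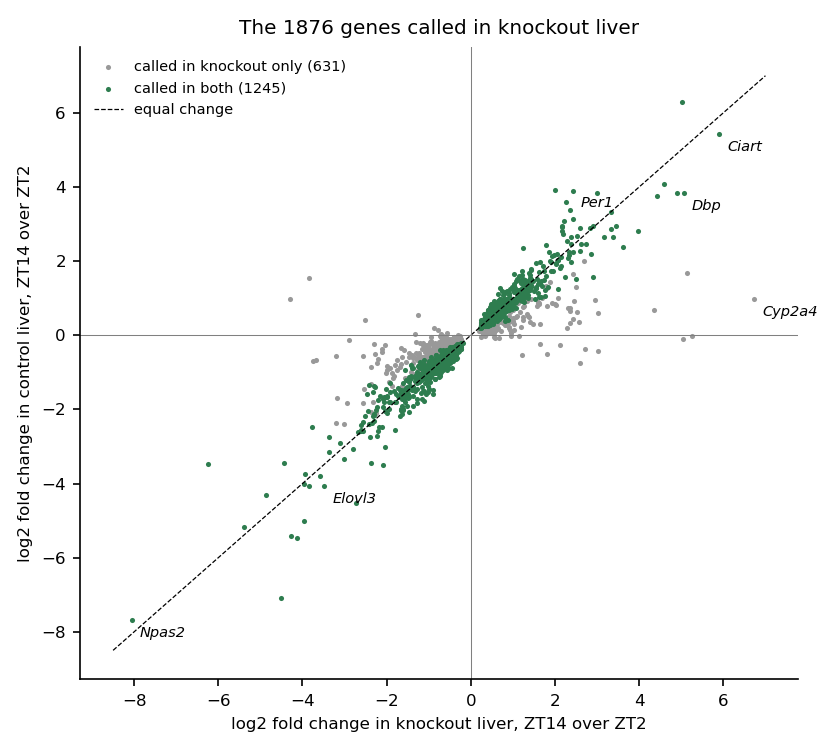
The log2 fold change of ZT14 over ZT2 in control livers (y axis) against that in THRB-KO livers (x axis) for the 1876 genes called in THRB-KO livers, with the 1245 called in both genotypes in green, the other 631 in grey and a dashed line of equal change. The 1245 genes in green have the same sign on both axes, and *Cyp2a4* stands apart at 6.74 in THRB-KO and 0.98 in control livers.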

How the data were processed

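Poly-A RNA of 36 mouse livers (6 sampling times, THRB-KO and control, 3 mice each) was sequenced as paired-end reads without keeping the strand. The deposited file holds counts of reads per gene: the authors removed adapter, poly-N and low-quality reads, mapped to GRCm38 (mm10) with HISAT2 and counted with featureCounts, and the versions, the annotation release and the handling of reads with several matches were not given in the sources used here. Per the file headers a further column gives gene length, used for no test.

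Groups came from the sample labels. The members and gene lists were chosen with earlier results of these data known. Genes with at least 100 counts over the 36 libraries were fitted with edgeR 4.0.16 (R 4.3.3, TMM, quasi-likelihood test, 12 group means, 24 residual degrees of freedom), and the contrasts ZT14 minus ZT2 in THRB-KO, the same in controls and their difference were tested two-sided with Benjamini-Hochberg adjustment over 17994 genes at 0.05. CPM values used TMM library sizes. SE is the absolute log2 fold change divided by the square root of the F value of its test, and not a separately fitted standard error. The fit was run on simulated counts drawn independently for each library, which checks the code and not how calls depend on single mice. Named genes were the 12 largest changes in each direction (adjusted p under 0.05, at least 5 CPM, no overlap, an established symbol), all genes of the 3 clock lists, up to 4 called members with the smallest adjusted p of each other list, members singled out as not called, the 5 smallest p-values of the difference, and *Thrb*. Promoters came from a RefSeq table on GRCm38.p6, matched by symbol.

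Alternatives were fits of the 6 or the 18 THRB-KO libraries, DESeq2 1.42.0 (Wald test and size factors) and other filters on low counts. Robust dispersion and a block on the mouse letter were further alternatives. Each THRB-KO or control library of ZT2 and ZT14 was also left out in turn, but no library of the other sampling times. Where a count rests on few reads, the interval covers counting error only. Some genes of the lists are not reported here.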

Additional observations from a re-analysis of the deposited data

How the results depend on the processing

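The 1876 calls fell to 701 (330 higher, 371 lower, 304 at least 2-fold) when the 6 libraries were fitted alone, with fewer samples to estimate the spread. Leaving out 1 mouse gave between 930 and 1635 calls, between 440 and 813 higher, between 490 and 854 lower and between 341 and 531 at least 2-fold. The lowest were without mouse c at ZT2, and without mouse c at ZT14 1207 were called, 595 of them lower. The cause was not tested. In controls, leaving out 1 mouse gave between 1465 (without control mouse c at ZT2) and 1800 calls, against 2263. The difference between genotypes had 0 calls in every edgeR alternative and 2 with DESeq2, which called 2253 genes for ZT14 against ZT2. Between ZT2 and ZT14 livers, deviations of THRB-KO mice with the same letter had r between -0.048 and 0.053 over 7748 genes. Those of mice with different letters had r between -0.162 and 0.111. So few pairs cannot decide whether mice of a letter share an effect, which was not tested. A block on the letter gave 2147 calls over the 36 libraries, against 1876 without it. Over the 6 libraries the block gave 393 calls (193 higher, 200 lower, 226 at least 2-fold). The other settings gave between 1589 and 1944 calls. Of 1737 values of named genes under the alternatives, 1558 kept their status as called or not called, 175 lost the call and 4 gained it. Of the values called in the main fit or the alternative 0 changed direction. Genes not called could change sign, as *Tsc22d3* (log2 fold change -0.424 to 0.841) and *Thrb* (-0.114 to 0.043) did. With the 6 libraries alone 34 named genes lost the call. Depth limits genes of a few counts, such as *Npas2* at ZT14.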
